A study of Rattus norvegicus with 48 samples.

Results

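Plasma miRNAs 8 weeks after the calvaria defect operation were compared with those of the same 12 rats before surgery (baseline, week 0), which takes 24 of the 48 libraries of the series, 12 at each time point. The members were the libraries taken at either of these time points, paired by rat, and all 645 mature miRNAs of the count table were considered. The strain is named as Sprague-Dawley in the methods of the study and as Wistar elsewhere in its text, while the labels give none. The animals were male, 12 weeks old at surgery, and received 1 of 4 treatments: an untreated defect, a CHA scaffold (collagen and hydroxyapatite), that scaffold with plasmid DNA for BMP2 and miR-590-5p, or that scaffold with vesicles from mesenchymal stromal cells. From these, 6 strong and 6 weak regenerators had been picked by micro-CT of the skull, with treatments unevenly spread between both sets, and the treatment of each rat is not mapped here. The labels give the regeneration class of the baseline samples as unknown, so it was taken from the animal. All 12 rats had surgery, so week 8 differs from baseline in surgery, in healing and in age together, and these cannot be told apart. The week 8 libraries also hold a far higher share of spike-in reads than all others. The labels name no batch, but by this measure a batch of libraries coincides with week 8, so batch and week cannot be told apart. Whether the higher share came with the handling of these libraries or with less miRNA in the plasma was not tested.

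MicroRNAs are short RNAs cut from hairpin precursors by Drosha and Dicer, and either arm of the hairpin, 5p or 3p, can be loaded into an Argonaute protein. Bases 2 to 8 of the loaded strand, the seed, pair with target transcripts, so miRNAs with 1 seed are grouped as a family. In plasma, miRNAs are protected by Argonaute proteins, vesicles and lipoproteins, and most come from blood cells and vessel lining, with smaller parts from liver, muscle, skin and other tissues. In bulk plasma, a lower level of a tissue's miRNA may mean fewer releasing cells, less release per cell or faster loss, and these cannot be told apart.

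The sequences below are the mature miRNAs on which the results turn, from RefSeq (GRCr8), with the seed in capitals. The first set fell and comes from 5 hairpins, 3 of the miR-322 cluster on the X chromosome, miR-199a and miR-140, with no seed in common.
miR-322-3p: aAACAUGAagcgcugcaaca
miR-322-5p: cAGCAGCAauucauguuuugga
miR-503-3p: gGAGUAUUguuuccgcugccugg
miR-351-3p: gGUCAAGAggcgccugggaac
miR-199a-3p: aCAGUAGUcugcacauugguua
miR-140-5p: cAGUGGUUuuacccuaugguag
miR-140-3p: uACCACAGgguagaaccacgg

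The second set is shown because its members share a seed while their changes at week 8 differed in size, in the call or, in the miR-29 family, in direction. The miR-148 and miR-152 pair differs at 3 of 21 bases, the let-7 members at 1 to 4 of 22, miR-181b-5p and miR-181d-5p at 1 of 23, and miR-29a-3p and miR-29c-3p at 1 of 22.
miR-152-3p: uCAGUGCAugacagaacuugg
miR-148a-3p: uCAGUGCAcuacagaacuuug
let-7a-5p: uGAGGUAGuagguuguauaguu
let-7f-5p: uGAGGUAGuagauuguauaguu
let-7g-5p: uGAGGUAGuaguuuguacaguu
let-7i-5p: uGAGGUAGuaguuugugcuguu
miR-181a-5p: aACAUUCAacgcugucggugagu
miR-181b-5p: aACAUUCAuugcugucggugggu
miR-181c-5p: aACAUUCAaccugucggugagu
miR-181d-5p: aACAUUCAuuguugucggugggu
miR-29a-3p: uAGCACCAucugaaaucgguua
miR-29b-3p: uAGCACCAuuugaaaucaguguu
miR-29c-3p: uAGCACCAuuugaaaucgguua

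The third set holds 3 hairpins whose arms moved in opposite directions, and 2 abundant miRNAs that rose.
miR-361-5p: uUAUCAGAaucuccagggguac
miR-361-3p: cCCCCAGGugugauucugauucgu
miR-142-5p: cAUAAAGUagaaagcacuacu
miR-142-3p: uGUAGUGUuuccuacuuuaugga
miR-144-5p: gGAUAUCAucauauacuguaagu
miR-144-3p: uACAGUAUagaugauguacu
miR-103-3p: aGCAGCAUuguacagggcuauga
miR-451-5p: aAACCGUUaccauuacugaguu

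The libraries of both time points differed before any miRNA was compared. UniSp2, a synthetic RNA added in equal amount during extraction, gave 23.4 to 41.8 reads per 1000 miRNA reads at baseline (median 34.0) and 91.1 to 143.9 at week 8 (median 120.2), with no overlap, while weeks 1 and 4 lay between 23.3 and 60.4. The paired rise was 88.2 ± 19.6 (SD, n = 12 rats) and was seen in 12 of 12 rats (two-sided exact sign-flip permutation test, adjusted p = 0.000977 over 8 library measures). The ratio of UniSp2 to UniSp4, another spike-in, was 87.5 to 141.5 at baseline (median 100.3) and 69.1 to 93.9 at week 8 (median 79.8). This ratio was lower in 12 of 12 rats (exact permutation test, adjusted p = 0.000977), and weeks 1 and 4 lay between 85.5 and 131.2. Why these spike-ins shifted against each other was not tested. Total miRNA counts were 482189 to 1360663 at baseline and 393259 to 990333 at week 8, lower in 10 of 12 rats (exact permutation test, adjusted p = 0.0151). The number of miRNAs with at least 1 read fell from a median of 469.5 to 429, and after thinning every library to 393259 reads from 429 to 403.5, lower in 11 of 12 rats with 1 tie (exact permutation test, adjusted p = 0.0013). Their part in the results below was not tested.

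**Figure D1:**
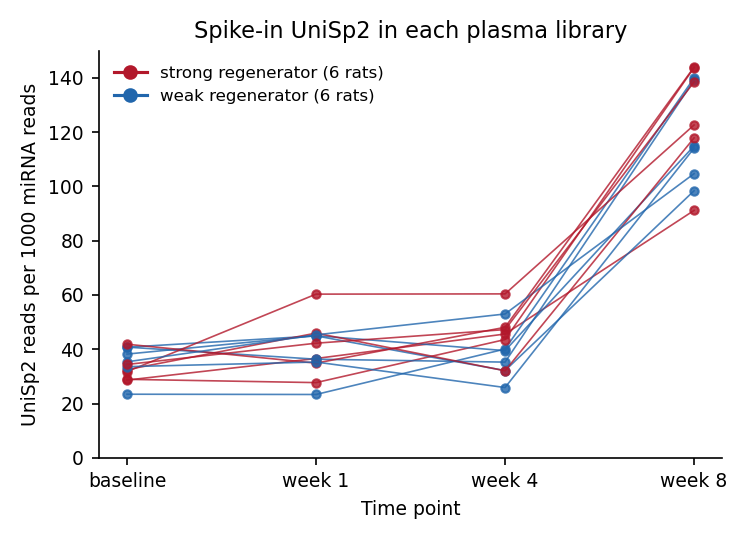
UniSp2 reads per 1000 miRNA reads (vertical axis) in each of 48 plasma libraries by time point, with 1 line per rat, red for strong and blue for weak regenerators. All 12 week 8 libraries lie at 91.1 or above, and all other libraries at 60.4 or below.

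Week 8 plasma had less of the cartilage miRNAs miR-140 and miR-455 and of the miR-322 cluster, and more of miR-181c-5p, miR-103-3p and the red-cell miR-451-5p, relative to the other miRNAs of the same library. Of 549 miRNAs tested with edgeR, with the rat as a block, 240 were called at an FDR (Benjamini-Hochberg) under 0.05, or 43.7%, of which 87 (15.8%) were higher and 153 (27.9%) lower at week 8. Among the 309 miRNAs with a mean of at least 10 reads per 1000000 miRNA reads (RPM), 85 were higher and 119 lower, and the median log2 fold change was -0.12. Calls were thus more frequent among these abundant miRNAs than among all 549. Counts over lists of mostly abundant miRNAs are to be read against both. The change exceeded 2-fold for 116 of the called miRNAs, 24 higher and 92 lower, and all 12 rats moved in 1 direction for 103 (38 higher, 65 lower). Levels at both time points did not overlap for 13 higher miRNAs (2.37% of those tested) and 30 lower ones (5.46%). These directions are relative to the library total. With scaling to UniSp2 reads instead, the median change of the 309 miRNAs shifted by -1.92 to -2.04, 455 miRNAs were called lower and 0 higher, and 85 of the 87 miRNAs that were higher in the main fit had a negative log2 fold change. Every rise given below is therefore a rise against the other miRNAs of the library, and each rise given with a log2 value was negative with UniSp2 scaling.

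**Figure D2:**
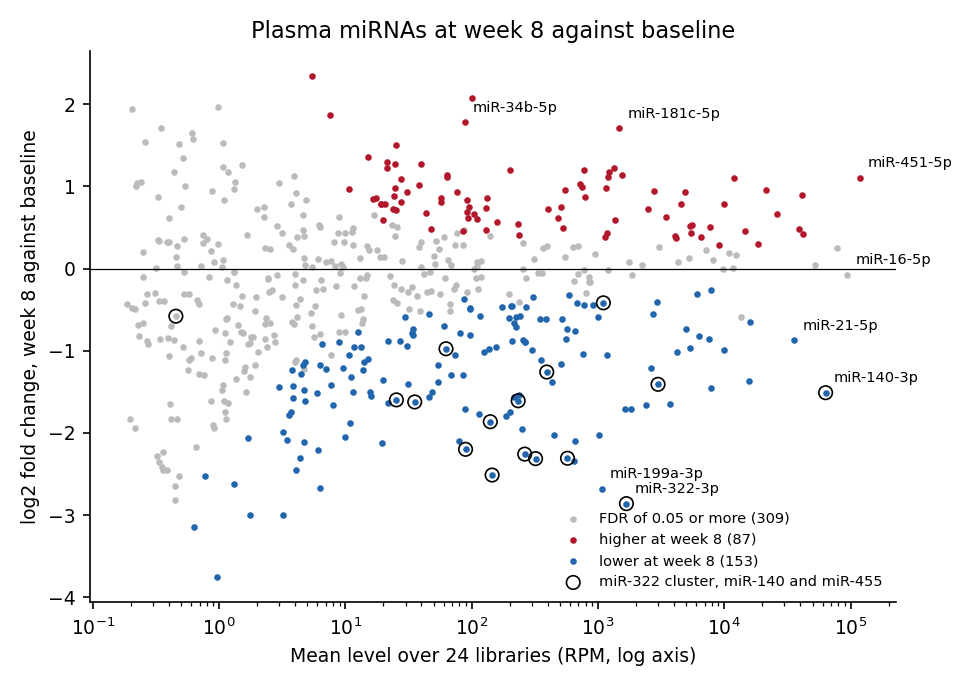
Log2 fold change at week 8 against baseline (vertical axis) by mean level over the 24 libraries (horizontal log axis, RPM) for 549 miRNAs, red for the 87 called higher, blue for the 153 called lower and grey for the others, scaled by TMM (with scaling to UniSp2 reads 455 were lower and 0 higher). Circled are the members of the miR-322 cluster, miR-140 and miR-455, of which miR-322-3p lies lowest at -2.86.

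The most abundant plasma miRNAs changed places. At baseline miR-16-5p and miR-140-3p had the highest medians, and at week 8 miR-451-5p did. The red-cell miRNA miR-451-5p lay between 31117 and 120479 RPM at baseline (median 84758) and between 114998 and 194617 at week 8 (median 156208), a log2 fold change of 1.11 ± 0.13 (SE, edgeR FDR = 4.8e-08), higher in 12 of 12 rats. The cartilage miRNA miR-140-3p lay between 61288 and 113974 RPM at baseline (median 99573) and between 25186 and 45628 at week 8 (median 29887), a log2 fold change of -1.51 ± 0.11 (edgeR FDR = 5.9e-13). Every week 8 library thus lay under every baseline library for miR-140-3p, while for miR-451-5p 1 baseline library lay above the lowest week 8 libraries.

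Among the other abundant miRNAs, miR-19b-3p of the miR-17-92 cluster rose from 24751–36619 RPM (median 29353) to 43956–60749 (median 52644), with no overlap and a log2 fold change of 0.89 ± 0.10. Its week 8 levels were above those of all 36 libraries from the other time points. Smaller rises were called for miR-93-5p (log2 0.67 ± 0.11), miR-25-3p (0.48 ± 0.10) and miR-92a-3p (0.42 ± 0.10), whose levels overlapped between the time points. For miR-21-5p, a widely expressed miRNA induced by injury and inflammation, the median went from 43091 to 23984 RPM and the log2 fold change was -0.87 ± 0.14, lower in 12 of 12 rats. Not called were miR-16-5p (medians 99779 and 89741 RPM), miR-486 (74916 and 79360) and miR-191a-5p (53667 and 49923). For miR-486 the log2 fold change was 0.25 ± 0.11 (edgeR FDR = 0.076), higher in 9 of 12 rats. The study reported this miRNA as higher than baseline at every time point after surgery.

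The largest decrease among miRNAs above 100 RPM that moved in 1 direction in at least 11 of 12 rats was in the miR-322 cluster, which encodes growth-arrest miRNAs of the miR-15/16 seed group and their neighbours and is active in growing tissue. Its 12 mature miRNAs lie within 137720952 to 137726219 on the minus strand of chromosome X (GRCr8). All 12 were tested, and 11 were called lower and 0 higher, against 27.9% lower over all tested miRNAs. The median log2 fold change was -1.62, against -0.30 over all 549, and 10 fell in each of 12 rats. This list was chosen with earlier results of these data known, so its count is a description and no test. The study had already reported most of its members as lower than baseline at every time point after surgery.

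For miR-322-3p, the 3p arm of the rat counterpart of human miR-424, baseline levels were 1739 to 4370 RPM (median 2863) and week 8 levels 238 to 638 (median 363). No libraries overlapped, the fall was 7.27-fold (log2 fold change -2.86 ± 0.14, edgeR FDR = 2.2e-16), and week 8 lay under all 36 libraries of the other time points. Medians were 1119 RPM at week 1 and 1119 at week 4, so the levels lay in between. Its 5p arm, miR-322-5p, went from 245–425 RPM (median 357) to 56.7–188 (median 111), a log2 fold change of -1.61 ± 0.15. The neighbours miR-351-3p (medians 256 and 41.5 RPM, log2 fold change -2.51 ± 0.19) and miR-503-3p (465 and 86.1 RPM, -2.26 ± 0.18) fell without overlap as well.

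The 5p arm of miR-503, which targets cell-cycle transcripts, had medians of 140.1 and 28.8 RPM and a log2 fold change of -2.20 ± 0.17. The fall was -1.86 ± 0.17 for miR-542-3p, -1.62 ± 0.25 for miR-450b-3p and -1.26 ± 0.16 for miR-351-5p. The weakest call was miR-450a-5p, with 534 to 2559 RPM at baseline and 679 to 1612 at week 8. Its log2 fold change of -0.42 ± 0.17 (edgeR FDR = 0.046) was lower in 9 of 12 rats, and the call was lost in 21 of 26 alternative settings, 11 of which left out 1 rat (without each rat in turn except rat 26). The member not called, miR-450a-3p, had a median of 0 RPM at both time points.

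The 4 miRNAs of cartilage, both arms of miR-140 and of miR-455, were all called lower, with a median log2 fold change of -1.91, and none overlapped. This list too was chosen with earlier results of these data known. The study had already reported all 4 as lower than baseline at every time point after surgery. MiR-140 lies in an intron of Wwp2, is highly expressed in chondrocytes and supports growth plate development, and miR-455 lies in Col27a1, a cartilage collagen gene. Levels of miR-140-5p were 339 to 880 RPM (median 490) at baseline and 55.9 to 156 (median 102) at week 8, a log2 fold change of -2.31 ± 0.15. The 3p arm, over 100 times as abundant, fell by 1.51 as given above, and the ratio of both arms was lower at week 8 in 12 of 12 rats. MiR-455-5p went from 531–1318 RPM (median 976) to 106–291 (median 166), with a log2 fold change of -2.31 ± 0.14, and miR-455-3p from 2465–5672 (median 4477) to 1089–2247 (median 1441), with -1.41 ± 0.13. The summed level of the 4 was 64623 to 120484 RPM at baseline and 26767 to 48176 at week 8, and all 12 rats were lower for each.

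**Figure D3:**
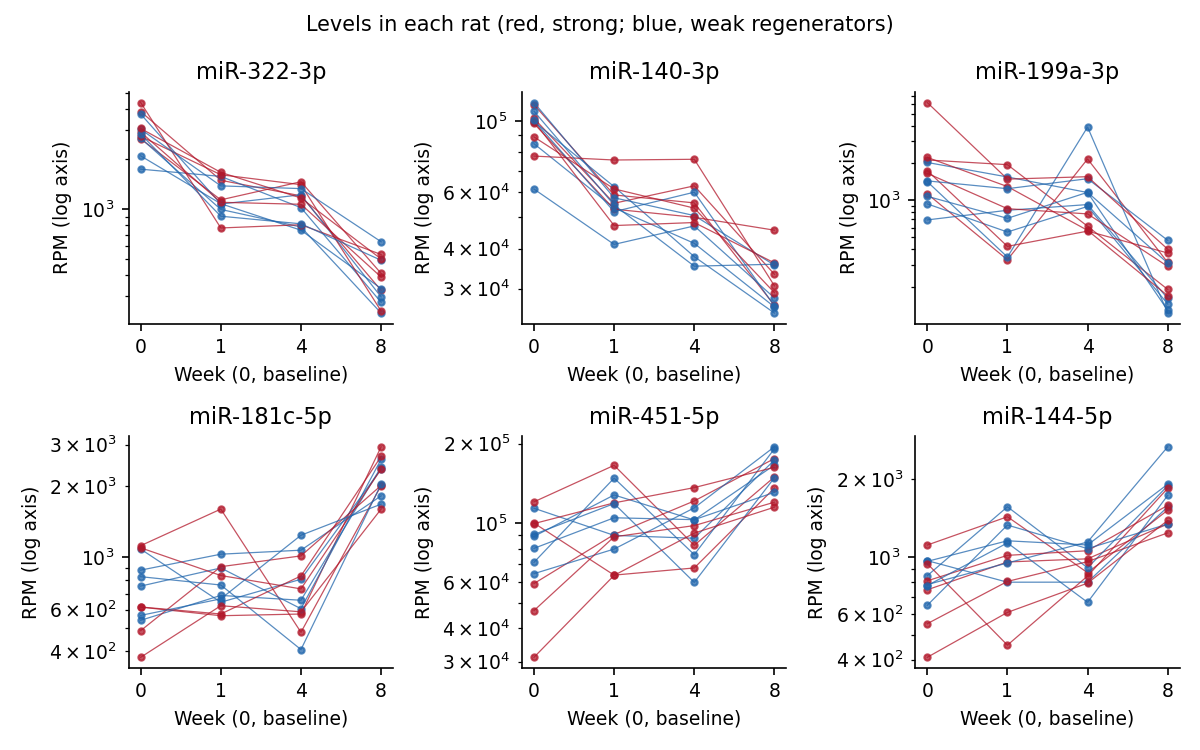
Levels of 6 miRNAs (vertical log axes, RPM) at weeks 0, 1, 4 and 8, with 1 line per rat, red for strong and blue for weak regenerators. The upper row fell by week 8, with miR-322-3p and miR-140-3p already lower at week 1, and the lower row shows miRNAs that rose relative to the library total and had negative log2 changes when scaled to UniSp2 reads.

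Of 7 tested miRNAs of mesenchymal and smooth muscle cells, 2 were called lower and 1 higher, counts near the 27.9% lower and 15.8% higher of all tested miRNAs, with a median log2 fold change of -0.15. MiR-199a-3p and miR-214-3p, which are cut from neighbouring hairpins of the Dnm3os transcript of connective tissue, were the 2 that fell. The former lay between 692 and 6155 RPM at baseline (median 1539) and between 122 and 473 at week 8 (median 240), a log2 fold change of -2.68 ± 0.20, and the latter between 650 and 2334 (median 1009) and between 105 and 493 (median 199), with -2.10 ± 0.14. No library overlapped for either. The 5p arm miR-199a-5p, cut from the same hairpin as miR-199a-3p, was not called and had medians of 572 and 533 RPM. MiR-145-5p of smooth muscle rose from a median of 2703 to 4365 RPM (log2 fold change 0.79 ± 0.18), while miR-143-3p, from the same cluster, had medians of 13627 and 6754 RPM and was not called, with single libraries up to 50833 RPM at week 8.

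In the Dlk1-Dio3 cluster, an imprinted locus whose miRNAs come from the maternal chromosome and are high in brain, placenta and growing tissue, 39 of 42 listed miRNAs were tested and 19 were called lower and 0 higher, beside 27.9% and 15.8% of all tested miRNAs. The median log2 fold change was -1.32, but levels were low, and 17 members reached a mean of 10 RPM. The clearest fall was in miR-434-3p, from 58.7–303 RPM (median 112) to 9.71–58.2 (median 25.1), the 1 member without overlap (log2 fold change -2.10 ± 0.20). MiR-411-5p fell by 1.64 ± 0.26 on the log2 scale, from a median of 27.5 to 10.1 RPM, and miR-376c-3p from a median of 49.4 to 15.1 RPM, with a log2 fold change of -1.50 ± 0.25.

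Other miRNAs among the 10 largest decreases were miR-152-3p, miR-361-5p and miR-125b-5p. MiR-152-3p, which lies in Copz2 and targets the DNA methyltransferase Dnmt1, went from 736–1522 RPM (median 1078) to 96.5–411 (median 196), a log2 fold change of -2.34 ± 0.16. MiR-148a-3p, which shares its seed and differs at 3 bases, fell from 4125–6838 RPM (median 5762) to 2035–3757 (median 2598), with -1.02 ± 0.12, and neither overlapped. Levels of miR-125b-5p, a miRNA of many mesenchymal cells, were 667 to 4706 RPM (median 1545) and 109 to 725 (median 356), a log2 fold change of -2.02 ± 0.22, with overlap. Below all 36 other libraries were also miR-106b-5p, a member of the miR-17 seed group (medians 186 and 85.7 RPM, log2 fold change -0.98 ± 0.15), and miR-193b-3p (266 and 156 RPM, -0.88 ± 0.16).

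The largest increase among miRNAs above 100 RPM that moved in 1 direction in at least 11 of 12 rats was miR-181c-5p, of a family that tunes T cell receptor signalling. It lay between 377 and 1120 RPM at baseline (median 685) and between 1600 and 2940 at week 8 (median 2202), a log2 fold change of 1.71 ± 0.15 (edgeR FDR = 1.3e-10). Medians were 726 RPM at week 1 and 696 at week 4, and all week 8 levels exceeded all 36 others. A larger fitted change belonged to miR-9a-5p, called higher but in 9 of 12 rats, with 5.88 to 29.2 RPM at baseline (median 15.5) and 14.5 to 1500.1 at week 8 (median 31.2). The neighbour of miR-181c on chromosome 19, miR-181d-5p, rose from 800–1309 RPM (median 936) to 1548–3063 (median 1947), with 1.13 ± 0.13. In contrast, miR-181a-5p (medians 10215 and 11098 RPM) and miR-181b-5p (2858 and 3228), which are far more abundant and have the same seed, were not called. Since miR-181b-5p and miR-181d-5p differ at 1 of 23 bases and reads could be assigned with 1 mismatch, their split is uncertain. Of 7 tested members of the family, all with a mean of at least 10 RPM, 3 were higher and 1, miR-181a-1-3p (-0.60 ± 0.14), was lower. Over all tested miRNAs 15.8% were higher and 27.9% lower, and at that level 85 and 119 of 309.

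MiR-103-3p, a regulator of insulin signalling, rose without overlap from 6183–11268 RPM (median 7684) to 12663–18949 (median 15654), a log2 fold change of 1.10 ± 0.12. MiR-26a-5p, which acts on Smad and Ezh2 transcripts in bone cells, went from 8994–21766 RPM (median 15150) to 23509–43129 (median 25975), with 0.95 ± 0.12. These 2, with miR-181c-5p, miR-19b-3p and miR-18a-3p (medians 68.7 and 113 RPM, log2 fold change 0.83 ± 0.16), are the 5 miRNAs above all 36 other libraries. MiR-301a-3p (medians 883 and 1837 RPM, 1.23 ± 0.15) and miR-363-3p (476 and 903 RPM, 1.03 ± 0.14) complete the large increases that are not described with their hairpins below. All of these had negative log2 values when scaled to UniSp2.

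Blood cells are the main source of plasma miRNAs, so their markers were set beside these changes. Of the 309 miRNAs with a mean of at least 10 RPM, 85 were higher and 119 lower. Over 7 red-cell miRNAs tested, all at that level, the median log2 fold change was 0.42. Among them 4 were higher and 1 lower, beside 15.8% and 27.9% of all tested miRNAs. The 4 were miR-451-5p, miR-363-3p, miR-92a-3p and miR-144-5p, and the last of these, from the hairpin next to miR-451, rose from 408–1111 RPM (median 794) to 1238–2668 (median 1572), a log2 fold change of 1.17 ± 0.13, without overlap. The member called lower was miR-144-3p, described with its hairpin below, and miR-16-5p and miR-486 were not called. The summed red-cell list was 235950 to 335356 RPM at baseline and 320768 to 430866 at week 8. The log2 ratio of miR-451-5p to miR-23a-3p, a measure of haemolysis, was 2.15 ± 0.57 (SD, n = 12) at baseline and 2.95 ± 0.44 at week 8, a paired rise of 0.80 ± 0.47 in 11 of 12 rats (exact permutation test, adjusted p = 0.0013). Its part in the other changes was not tested.

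Of 11 white-cell and platelet miRNAs, 2 were higher and 4 lower, near the shares of all tested miRNAs (15.8% and 27.9%). MiR-150-5p of mature lymphocytes went from 10014–45085 RPM (median 21124) to 5119–13084 (median 7555), a log2 fold change of -1.36 ± 0.18, and miR-146a-5p, an NF-kB target that restrains innate signalling, from 2161–9755 (median 5120) to 893–3561 (median 1639), with -1.65 ± 0.21. Both were lower in 11 of 12 rats. MiR-155-5p of activated leukocytes was higher in 12 of 12 rats, with medians of 515 and 904 RPM and a log2 fold change of 0.99 ± 0.14. Myeloid miR-223-3p (medians 11907 and 13077 RPM) and endothelial and platelet miR-126a-3p (6619 and 7083) were not called.

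Tissue miRNAs of liver, muscle and epithelium were called in both directions, as were all tested miRNAs (15.8% higher and 27.9% lower), against which the following small counts are to be read. Of 7 liver miRNAs, 3 were higher and 2 lower: miR-122-5p, the main hepatocyte miRNA, had medians of 720 and 435 RPM (log2 fold change -1.03 ± 0.21) and miR-192-5p 9115 and 3783 (-0.82 ± 0.16), whereas miR-802-5p had 295 and 428 (0.73 ± 0.16). Medians of miR-122-5p were 1938 RPM at week 1 and 1388 at week 4, above both. Of 9 muscle miRNAs, 3 were higher and 1 lower, but only 4 reached a mean of 10 RPM, with 2 higher and 0 lower among them. MiR-133a-3p ranged from 304 to 9574 RPM at baseline (median 1309) and from 835 to 7745 at week 8 (median 2136), a log2 fold change of 0.94 ± 0.23 in 9 of 12 rats with wide overlap. Without the rat as a block its FDR was 0.24, so this call rests on the pairing. Of 9 epithelial miRNAs, 1 was higher and 2 lower: miR-375-3p of endocrine and gut epithelium rose from a median of 1782 to 2893 RPM (log2 fold change 0.72 ± 0.14, 10 of 12 rats), and miR-200a-3p, which keeps the epithelial state, fell from 717 to 304 (-0.86 ± 0.15). The skin miRNAs miR-203a-3p (medians 11788 and 9571 RPM) and miR-205 (3899 and 4309) were not called.

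**Figure D4:**
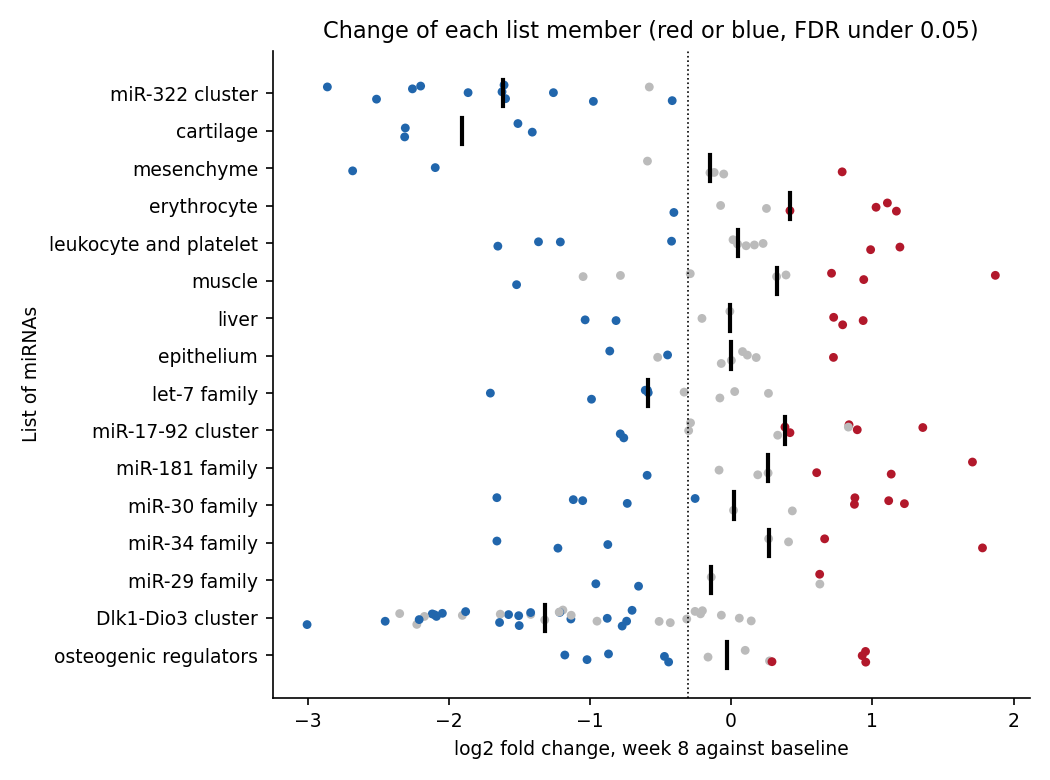
Log2 fold change at week 8 against baseline (horizontal axis) of the tested members of 16 miRNA lists (vertical axis), red for members called higher, blue for lower and grey for not called, with a bar at the median of each list and a dotted line at the median of all 549 tested, -0.30. The miR-322 cluster and cartilage lists lie to the left with medians of -1.62 and -1.91, and most families have members on both sides; rises are relative to the library total, and those given with a log2 value were negative when scaled to UniSp2 reads.

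Members of some seed families were called in opposite directions, and others moved in 1 direction by different amounts. In the let-7 family, which restrains growth genes such as Lin28 and Igf pathway members, 5 of 9 were called lower and 0 higher. Over all tested miRNAs, 27.9% were lower and 15.8% higher. All 9 let-7 members had a mean of at least 10 RPM, a level at which 119 of 309 were lower and 85 higher. Let-7g-5p went from 1447–5312 RPM (median 2411) to 519–1080 (median 825), a log2 fold change of -1.71 ± 0.16 without overlap, and let-7i-5p, the most abundant, from 7639–17440 (median 13697) to 3340–10043 (median 6821), with -0.99 ± 0.15. Let-7f-5p (medians 1989 and 1637 RPM) and let-7a-5p (93.1 and 113) were not called. Since reads could be assigned with 1 mismatch and let-7a-5p and let-7f-5p differ at 1 base, the split between these is uncertain.

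In the miR-29 family, which targets collagen and other matrix transcripts, miR-29a-3p fell from a median of 19477 to 10881 RPM (log2 fold change -0.66 ± 0.12) and miR-29b-3p from 214 to 96.3 (-0.96 ± 0.17). MiR-29c-3p, 1 base from miR-29a-3p, rose from 2631 to 4168 (0.63 ± 0.12), in 11 of 12 rats. The direction of each was seen in 11 of 12 rats, but reads with a mismatch could be assigned to either of a and c, so their split is uncertain. The p53-induced miR-34 family was divided too, with miR-34b-5p up from 20.7–67.0 RPM (median 34.4) to 57.7–258 (median 127; log2 fold change 1.78 ± 0.18, 12 of 12 rats), miR-34c-5p up from 80.9 to 127 (0.66 ± 0.17) and miR-34a-5p, which comes from a separate gene, down from 323 to 192 (-0.87 ± 0.17). Of 7 tested members of this list, 2 were higher and 3 lower, beside 15.8% and 27.9% of all tested miRNAs. Among the lower ones 1 reached a mean of 10 RPM. The other arm of miR-34b, miR-34b-3p (mean 8.03 RPM), had mean log2 changes of -1.94 in strong and -1.44 in weak regenerators.

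The miR-17-92 cluster, which drives cell growth in blood and other tissues, had 5 of 11 members higher and 2 lower, beside 15.8% and 27.9% of all tested miRNAs. Of the 11, 10 had a mean of at least 10 RPM, a level at which 85 of 309 were higher and 119 lower. Beside the rises of miR-19b-3p, miR-18a-3p and miR-92a-3p stood a fall of miR-20a-5p from 695–1095 RPM (median 816) to 272–791 (median 436), a log2 fold change of -0.76 ± 0.15, although both come from 1 transcript. Of all tested miRNAs 15.8% were higher and 27.9% lower, and of the 309 with a mean of at least 10 RPM 85 and 119. Of 12 tested miRNAs listed as regulators of osteoblasts, all at that level, 4 were higher and 5 lower. Their median log2 fold change was -0.03. Among the higher ones, miR-221-3p rose without overlap from 2047–4292 RPM (median 3697) to 4615–8112 (median 6224; 0.93 ± 0.13), and miR-138-5p, an inhibitor of osteoblast differentiation, from a median of 384 to 683 (0.95 ± 0.13). The 5 lower ones included miR-148a-3p (-1.02, without overlap), miR-21-5p (-0.87) and miR-210-3p (-0.44).

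Over 32 seeds with at least 2 abundant members of different sequence (90 miRNAs), 24 had calls in 1 direction, 5 in both and 3 had none, and the median range of log2 fold changes within a seed was 0.81. The 5 in both directions were those of miR-17, miR-25, miR-34, miR-29 and the miR-181 3p arms.

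Arms of 1 hairpin can be compared within a library, so their ratio needs no scaling between libraries. In 76 hairpins with at least 10 RPM in each arm, the log2 ratio of 5p to 3p was called as changed by limma in 53 (69.7%), toward 5p in 24 and toward 3p in 29. Ratios did not overlap between the time points in 15 (19.7%), 34 changed by more than 2-fold, and in 15 hairpins the arms were each called in opposite directions. Whether the arm ratios moved with the higher spike-in share of the week 8 libraries was not tested.

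The largest shift was in miR-361, an X-linked hairpin in an intron of Chm. Its 5p arm fell from 505–974 RPM (median 737) to 64.6–342 (median 180), a log2 fold change of -2.03 ± 0.18, while its 3p arm rose from 88.5–166 (median 120) to 186–384 (median 266), with 1.20 ± 0.14. The log2 ratio of 5p to 3p went from a median of 2.48 to -0.68, a change of -3.24 ± 0.20 (limma FDR = 1.5e-09), and week 8 lay apart from all 36 other libraries, whose medians were 2.27 at week 1 and 2.71 at week 4. The arm with more reads thus switched from 5p to 3p. The same switch of the more abundant arm was seen in miR-30e and miR-18a, and from 3p to 5p in miR-199a.

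In miR-142, a hairpin of blood cells, the 5p arm fell from 2199–5475 RPM (median 3843) to 1068–2180 (median 1507), with -1.21 ± 0.14 and no overlap, and the 3p arm rose from 299–763 (median 441) to 658–1412 (median 1030), with 1.20 ± 0.13. The log2 ratio changed by -2.40 ± 0.18. The miR-30 family, active in many epithelia and in muscle, showed this in several hairpins: the 5p arms of miR-30d (-1.66 ± 0.16), miR-30b (-1.12 ± 0.15) and miR-30e (-1.05 ± 0.13) fell, and the 3p arms of miR-30d (1.23 ± 0.28), miR-30e (1.12 ± 0.13) and miR-30a (0.87 ± 0.13) rose. Ratio changes were -2.92 ± 0.33 for miR-30d and -2.17 ± 0.18 for miR-30e, and both ratios did not overlap between the time points. MiR-30e-5p differs from miR-30a-5p at 1 of 22 bases, so with 1 mismatch allowed the split of their reads is uncertain. In miR-130b the ratio changed by -1.99 ± 0.31, in 10 of 12 rats.

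Toward the 5p arm, the ratio of miR-199a changed by 2.54 ± 0.28, as the 3p arm fell and the 5p arm was not called. In miR-532 (2.37 ± 0.19), miR-532-5p rose from 597–997 RPM (median 806) to 1036–1945 (median 1480; 0.98 ± 0.12) and miR-532-3p fell from 27.7–76.2 (median 46.4) to 5.09–24.4 (median 15.6; -1.40 ± 0.21). Red-cell miR-144 behaved in the same manner (1.58 ± 0.14), with a rise of the 5p arm given above and a 3p arm that went from 2353–4710 RPM (median 3328) to 1817–3130 (median 2264; -0.41 ± 0.14), a call that was lost in 12 of 26 alternative settings, 9 of them with 1 rat left out (each except rats 5, 6 and 7). The hairpins miR-872 (1.997 ± 0.22) and miR-148a (1.85 ± 0.16; 5p arm 0.80 ± 0.22) complete the 5 largest. Ratios of miR-532, miR-144 and miR-342 (1.15 ± 0.13) at week 8 were above all 36 other libraries. In the miR-322 hairpin both arms fell but the ratio still changed by 1.25 ± 0.14, since the 3p arm fell further.

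**Figure D5:**
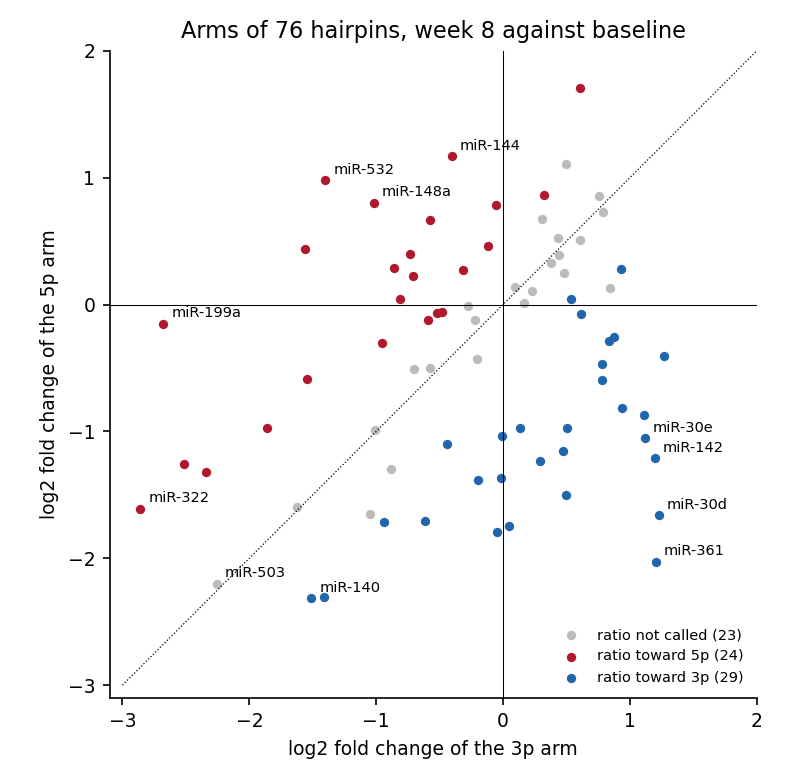
Log2 fold change of the 5p arm (vertical axis) by that of the 3p arm (horizontal axis) for 76 hairpins, red where the ratio moved toward 5p (24), blue toward 3p (29) and grey where it was not called (23), with a dotted line where both arms change alike. MiR-361, miR-30d, miR-142 and miR-30e lie at the lower right, with a fall of the 5p and a rise of the 3p arm (relative to the library total; both arms fell when scaled to UniSp2 reads), and miR-503 lies near the line.

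Sequence features that had no part in choosing the miRNAs were described for the 278 of 309 abundant miRNAs with a RefSeq sequence. Over all 309, 85 were called higher and 119 lower. Those that begin with U, the base that Argonaute proteins favour at the 5′ end, had a median log2 fold change of -0.41 (n = 117, 21 higher and 58 lower), and those that begin with A one of 0.19 (n = 83, 32 and 25). The difference was present in both arms, with medians of -0.59 for U and 0.29 for A among 5p miRNAs and -0.36 and -0.02 among 3p miRNAs. MiRNAs of 22 bases had a median of -0.33 (n = 143, 25 higher and 65 lower) and those of 23 bases 0.22 (n = 58, 26 and 14). Whether the differences by first base and by length came with the higher spike-in share of the week 8 libraries was not tested. GC content had a Spearman's rho of -0.04 with the log2 fold change over the 278 miRNAs, which share libraries and are no independent replicates, so no test is given.

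The change at week 8 was then compared between 6 strong and 6 weak regenerators. Of 622 miRNAs tested for a week by regeneration interaction with edgeR, 0 were called (0%), 20 had an unadjusted p under 0.05, and DESeq2 called 0 as well. Of the 240 miRNAs called at week 8, 239 had a mean change of the same sign in both sets of rats. In simulated counts, this interaction test recovered 43 of 100 differences of 2-fold and 71 of 100 of 4-fold, so smaller differences could be missed.

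The smallest FDR belonged to miR-203b-3p, named after its value was seen. It had medians of 15.8 and 12.3 RPM in strong and of 17.1 and 2.11 RPM in weak regenerators, with a mean log2 change of -0.05 ± 0.74 (SD, n = 6) and of -2.34 ± 0.75. The difference of the changes was 2.49 ± 0.63 (SE, edgeR FDR = 0.11). Without rat 25 its FDR was 0.046, the 1 call under any alternative. MiR-133a-3p rose by a mean of 0.92 ± 1.19 in strong and 0.79 ± 1.06 in weak regenerators, a difference of 0.15 ± 0.36 (SE), and miR-375-3p by 0.80 ± 0.43 and 0.47 ± 0.63, a difference of 0.32 ± 0.28, neither of which was called.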

How the data were processed

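Small RNA was isolated from plasma with synthetic spike-ins (UniSp2, UniSp4, UniSp5) and sequenced after single-adapter ligation. Per the study's methods, the authors trimmed adapters with cutadapt 3.3, assigned reads by Bowtie 1.3.0 and miRDeep2 first against the rat genome and next against rat miRBase miRNAs with 1 mismatch allowed, so near-identical miRNAs may share reads, and deposited raw read counts for 645 miRNAs and 3 spike-ins. The processing notes also name FastQC 0.11.9 and MultiQC 1.10. The treatment of each rat and the sequencing reads were not used here.

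RPM values are counts per 1000000 miRNA reads, without spike-ins. Week 8 was tested against baseline with R 4.3.3 and edgeR 4.0.16 (quasi-likelihood F test, TMM) over 24 libraries, with the rat as a block, since same-numbered samples come from 1 animal (mean correlation of their deviations 0.0883, against -0.0080 between rats). Low miRNAs were left out by the independent filter of DESeq2 (here under 0.182 RPM), and FDR values are Benjamini-Hochberg adjusted, called under 0.05. Arm ratios, log2((5p + 0.5)/(3p + 0.5)), were tested with limma 3.58.1, and 8 library measures with two-sided exact sign-flip tests over 12 rats (4096 patterns, smallest p 0.000488). RefSeq sequences matched 582 of 645 miRNAs by name. Tables and plots used Python 3.11.15, numpy 2.4.6, pandas 2.3.3, scipy 1.17.1 and matplotlib 3.10.9.

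Tested on simulated data over 622 miRNAs, the week 8 test recovered 77 of 100 changes of 2-fold and 94 of 100 of 4-fold, with 3 false calls among 422. The simulated counts had equal numbers of rises and falls, no rat effect and no shift in total miRNA. They therefore do not show how scaling between libraries affects the calls. Total miRNA counts of 393259 to 1360663 per library set the precision, and without molecular identifiers 1 molecule may give several reads.

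The 10 largest increases and decreases are those with an FDR under 0.05, a mean of at least 100 RPM and 1 direction in at least 11 of 12 rats. The 10 most abundant miRNAs, the 5 hairpins with the largest ratio change in each direction and the members of 16 lists (173 miRNAs, of which 2 are not in the counts) were described too. The members and lists were chosen with earlier results of these data known, so a count over a list is a description and no test of it. Alternatives were other scalings, filters, fits with no block or all 48 libraries, DESeq2 1.42.0, limma-voom, the quasi-likelihood method of edgeR version 4, other thresholds, each rat left out, and strong or weak regenerators alone.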

Additional observations from a re-analysis of the deposited data

Results flagged for a closer look

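Of the library measures by regeneration group, 1 sample lay apart from the others. The number of detected miRNAs changed by -70 in 1 strong regenerator, whose gap to the nearest of the other 5 was 0.66 of the range of the group. Chance alone gives about 1 such value in 20 groups, and over 20 groups were looked at.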

How the results depend on the processing

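With scaling to UniSp2 reads the number of calls was 455 in place of 240, 0 higher and 455 lower, against 87 higher and 153 lower, and the log2 fold changes of the 30 rises named with a value turned negative: miR-181c-5p -0.22, miR-301a-3p -0.71, miR-361-3p -0.73, miR-142-3p -0.74, miR-144-5p -0.76, miR-181d-5p -0.80, miR-30e-3p -0.82, miR-451-5p -0.82, miR-103-3p -0.84, miR-363-3p -0.91, miR-19b-3p -1.04, miR-92a-3p -1.52, miR-25-3p -1.45, miR-93-5p -1.26, miR-155-5p -0.94, miR-26a-5p -0.98, miR-221-3p -1.004, miR-138-5p -0.98, miR-29c-3p -1.30, miR-34b-5p -0.15, miR-34c-5p -1.27, miR-30a-3p -1.06, miR-30d-3p -0.68, miR-18a-3p -1.09, miR-145-5p -1.14, miR-133a-3p -0.98, miR-802-5p -1.20, miR-375-3p -1.21, miR-532-5p -0.95, miR-148a-5p -1.10. UniSp2 reads and the week cannot be told apart. RLE size factors gave 103 higher and 129 lower and shifted the median change by 0.12, and DESeq2 gave 109 and 122, with 0 of the 240 called miRNAs of opposite sign under RLE.

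With 6 weak regenerators alone the number of calls was 144 and with 6 strong ones 198, a gap whose cause was not tested, and a threshold of more than 2-fold left 116. Leaving out 1 rat at a time gave 213 to 246 calls, with 36.3% higher in the main fit and 37.0% to 47.0% without 1 rat, and filterByExpr gave 45.3%. For many named miRNAs, among rises and falls, the log2 fold change of the main fit also lay below every fit without 1 rat. Examples are miR-181c-5p (1.71, against 1.75 to 1.87), miR-103-3p (1.10, against 1.15 to 1.23) and miR-140-3p (-1.51, against -1.49 to -1.37). The weak calls of miR-450a-5p (-0.42, against -0.40 to -0.23) and miR-144-3p (-0.41, against -0.38 to -0.24) were among these. Others lay within these fits, such as miR-322-3p (-2.86, within -2.87 to -2.70) and the arm ratio of miR-361 (-3.24, within -3.36 to -3.15). The cause was not tested. Without the replicate block the count was 246. Changed arm ratios numbered 17 of 22 hairpins at 100 RPM in each arm, as fewer were tested, and 49 to 53 of 76 with 1 rat left out. Leaving out rats gave 0 to 1 calls in the interaction, the 1 without rat 25 being miR-203b-3p.

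Paired differences of the library measures with 1 rat left out ranged from 7.45 to 7.90 percentage points for the spike-in share, 85.6 to 91.0 for UniSp2 reads per 1000, -26.8 to -21.7 for the ratio of UniSp2 to UniSp4, -356729 to -256348 for the total count, -46.2 to -40.7 for detected miRNAs, -27.9 to -24.0 after thinning, 3.42 to 4.59 percentage points for the share of the 10 most abundant miRNAs, and 0.73 to 0.88 for the haemolysis ratio. Of 73 miRNAs and 14 hairpins named with a value, 80 kept their call in all alternatives except for the turns with UniSp2, and of 39 lost calls 33 were of miR-450a-5p and miR-144-3p. The block removed changed the call of miR-133a-3p, with no other named call lost. Below about 10 RPM single libraries often hold few reads, and how far depth limits the calls there was not tested.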

Other observations

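Among miRNAs outside the lists, miR-24-3p had 7564 to 17421 RPM at baseline (median 11260) and 2604 to 5659 at week 8 (median 3874), without overlap, and was chosen after its values were seen. The highest week 8 library therefore lay under the lowest baseline library. MiR-23a-3p, from the same cluster and used as the reference of the haemolysis ratio, had medians of 17337 and 19896 RPM and was itself called higher at week 8, in 10 of 12 rats. The let-7c-2-3p and let-7a-1-3p counts were identical in every library of both time points, so these 2 names stand for 1 measurement.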
